A study of Saccharomyces cerevisiae with 8 samples.

Results

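Yeast cells build purines de novo by adding atoms stepwise onto a ribose phosphate until inosine monophosphate (IMP) is formed, from which the branches to AMP and GMP part. The genes of this route are known to be switched on together by the transcription factors Bas1p and Pho2p, whose interaction is promoted by intermediates of the pathway itself, and they are held down when adenine is supplied. Salvage enzymes recover free bases instead, and among them Aah1p, the adenine deaminase, turns adenine into hypoxanthine. AAH1 is known for being shut down as cells leave growth for quiescence. The 10 genes described here were chosen by annotated symbol from the 5449 genes measured. They are ADE1, ADE2, ADE4, ADE6, ADE8, ADE12, ADE13 and ADE17 of de novo synthesis, MTD1 of one-carbon supply, and AAH1 of salvage. Each was read by a single probe set, a group of short array probes for a transcript, and no filter on low values removed any of them.

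Transcript levels were measured on 8 Affymetrix yeast arrays. Wild type and Δpde2 were each hybridised to 3 of them and Δpde2Δtpk3 to 2. All strains derive from BY4741, a laboratory haploid of mating type a, and carry his3Δ1, leu2Δ, met15Δ and ura3Δ. Δpde2 cells lack the high affinity cAMP phosphodiesterase through replacement of PDE2 by KanMx. Δpde2Δtpk3 cells carry HIS3 in place of PDE2 and also lack Tpk3p, a catalytic subunit of protein kinase A (PKA), through replacement of TPK3 by KanMx. The mutants have different origins by the study's strain list, and these origins and markers cannot be told apart from the loss of TPK3. Every culture, wild type included, had grown for 24 h in rich medium (YPD) with 4 mM cAMP, and no array without cAMP was analysed here. Triplicate cultures are described for both mutants. Nothing says that the wild type arrays came from separate cultures, so p-values involving them measure the spread between arrays, which may be technical. Levels are means over the cells of a culture, in which fewer cells expressing a gene and less RNA per cell cannot be told apart.

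PDE2 and TPK3, the genes targeted in the mutants, followed the labels. PDE2 stood at 9.13, 10.73 and 9.66 (log2 level) in wild type and between 4.89 and 5.18 on all 5 mutant arrays, and TPK3 lay between 8.57 and 8.84 on the 6 arrays of strains that carry it and at 4.97 and 4.37 in Δpde2Δtpk3. Wild type replicate 1 correlated less with the remaining arrays of its strain (r = 0.868 and 0.878 over all genes, against 0.992 between those), and its residual SD of 0.604 was the largest of the 8 arrays. The mean level of 4 markers of mating type alpha was 9.12 on that array and 6.83 to 7.45 on the other 7, whereas 5 markers of mating type a averaged 11.5 to 12.2 on all 8 arrays. That average hides STE6, which read 9.25 on wild type replicate 1 and 10.63 to 11.16 on the other 7. The remaining a markers, MFA1, MFA2, STE2 and BAR1, were each highest on it among the wild type arrays. The part of this array's makeup in the results below was not tested, and the values that change without it are given beside them. For the 10 purine genes its difference from the mean of the other wild type arrays ran from -0.75 for MTD1 to 0.54 for ADE17 on the log2 scale.

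ADE2 was higher in Δpde2 cells than in wild type, and it was the only purine gene of the 10 that passed the test in any comparison. ADE2 (YOR128C) encodes the carboxylase of aminoimidazole ribotide, the intermediate whose oxidised form colours ade2 mutants red. Its log2 level was 11.41, 11.57 and 11.30 in wild type, 12.35, 12.14 and 12.27 in Δpde2, and 11.84 and 12.51 in Δpde2Δtpk3. All 5 mutant arrays lay above all wild type arrays, and the lower of the Δpde2Δtpk3 arrays lay below every Δpde2 array. The mean rose from 11.43 ± 0.13 (SD, n = 3) for wild type to 12.25 ± 0.10 (SD, n = 3) for Δpde2, a log2 fold change of 0.83 (SE 0.19, 95% interval 0.39 to 1.26, limma adjusted p = 0.0116) or 1.77 fold. The gene stayed past the threshold with any single array left out, at an adjusted p of up to 0.0493. In Δpde2Δtpk3 the log2 difference from wild type was 0.74 (SE 0.21, interval 0.26 to 1.23), but its adjusted p was 0.110. The mutants differed by 0.08 (interval -0.40 to 0.57, adjusted p = 0.842), an interval that leaves room for differences of either sign.

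**Figure D1:**
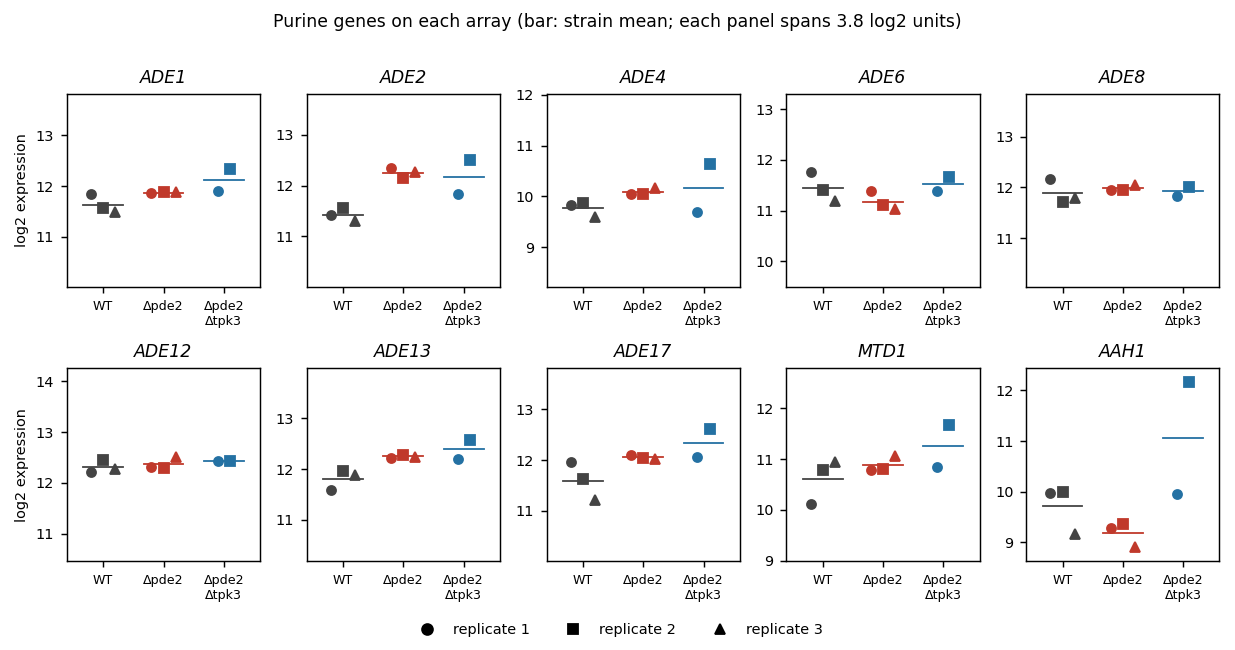
Log2 level of each of the 10 purine genes on each array, with wild type (WT), Δpde2 and Δpde2Δtpk3 along the x axis, symbols for the replicate and a bar at the strain mean; all panels span the same number of log2 units. ADE2, like ADE1, ADE13 and ADE17, separates every mutant array from every wild type array, and the 3 Δpde2 arrays lie close together for most genes. Δpde2Δtpk3 replicate 2 stands highest of all 8 arrays for several genes, by the widest margin for AAH1, at 12.16.

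Against that single call, 1 of 10 genes, 41.4% of all 5449 genes were called between Δpde2 and wild type, 19.5% of them higher and 21.9% lower as shares of all genes. At an unadjusted p under 0.05 there were 2 of the 10, ADE2 and ADE13, beside 51.3% of all genes. The share of purine genes called was thus below that of the array as a whole. The arrays of both strains did not overlap for 5 of the 10 (ADE1, ADE2, ADE4, ADE13 and ADE17, all higher in Δpde2), beside 62.0% of all genes and 31.1% higher in Δpde2. The median log2 fold change of the 10 was 0.25 and that of all genes 0.03. For 8 of the 10 the 95% interval of the difference excluded a change of 2 fold in either direction.

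The enzymes that complete IMP synthesis came nearest to ADE2. ADE13 (YLR359W) encodes adenylosuccinate lyase, which acts both on the way to IMP and in the last step to AMP. Its log2 level was 11.59, 11.97 and 11.88 in wild type, 12.22, 12.28 and 12.24 in Δpde2, and 12.20 and 12.58 in Δpde2Δtpk3. All mutant arrays lay above all wild type arrays. The difference between Δpde2 and wild type was 0.44 (SE 0.15, interval 0.08 to 0.79) with an adjusted p of 0.0516, just outside the threshold. With any single wild type or Δpde2 array left out it was not called, at 0.32 to 0.51 and an adjusted p of up to 0.144. The side of the threshold thus depended on which arrays were kept. Between Δpde2Δtpk3 and wild type the log2 difference was 0.58 (adjusted p = 0.117).

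ADE17 (YMR120C) encodes AICAR transformylase and IMP cyclohydrolase, the enzyme of the last steps to IMP. It read 11.96, 11.62 and 11.21 in wild type, 12.10, 12.05 and 12.02 in Δpde2, and 12.07 and 12.61 in Δpde2Δtpk3 (log2 levels). Here wild type spread over more of the scale than the mutants, with replicate 1 nearest to them, and no mutant array reached down to it. The log2 difference from wild type was 0.46 in Δpde2 (adjusted p = 0.129) and 0.75 in Δpde2Δtpk3 (adjusted p = 0.153). Without wild type replicate 1 these became 0.64 (adjusted p = 0.0163) and 0.93 (adjusted p = 0.0206), so the calls depend on which arrays are kept. With other single arrays left out the difference fell as low as 0.27 in Δpde2 (adjusted p up to 0.314) and 0.47 in Δpde2Δtpk3. Its paralogue ADE16, which encodes the other isozyme, lay on the opposite side of wild type in Δpde2, with a log2 difference of -0.23 (adjusted p = 0.102), and at 0.12 in Δpde2Δtpk3 (adjusted p = 0.552). Whether the paralogues differ in response was not tested.

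ADE1 (YAR015W) encodes SAICAR synthetase, which acts directly after Ade2p. Its log2 level was 11.84, 11.57 and 11.49 in wild type, 11.86, 11.88 and 11.87 in Δpde2, and 11.91 and 12.33 in Δpde2Δtpk3. The groups did not overlap, although the highest wild type array and the lowest Δpde2 array were only 0.02 apart as printed. The log2 difference from wild type was 0.23 in Δpde2 (adjusted p = 0.240) and 0.49 in Δpde2Δtpk3 (adjusted p = 0.170). The latter passed at 0.59 (adjusted p = 0.0286) without wild type replicate 1, but was 0.42 (adjusted p = 0.300) without wild type replicate 3. It was 0.28 without Δpde2Δtpk3 replicate 2 and 0.70 without Δpde2Δtpk3 replicate 1.

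ADE4, ADE8 and ADE6 were not called in any comparison. ADE4 (YMR300C), for the amidotransferase that commits phosphoribosyl pyrophosphate to the pathway, stood at 9.82, 9.87 and 9.60 in wild type, 10.04, 10.04 and 10.16 in Δpde2, and 9.69 and 10.63 in Δpde2Δtpk3 (log2 levels). Its arrays in Δpde2Δtpk3 thus bracketed those of both other strains, apart from the lowest wild type array. The difference of Δpde2 from wild type was 0.32 (adjusted p = 0.300). ADE8 (YDR408C), for the GAR transformylase, lay between 11.72 and 12.16 on all 8 arrays with overlapping strains. ADE6 (YGR061C), for FGAM synthase, read 11.77, 11.41 and 11.18 in wild type, 11.39, 11.12 and 11.03 in Δpde2, and 11.39 and 11.67 in Δpde2Δtpk3. It was the only de novo gene of the 10 with a lower mean in Δpde2 than in wild type, by -0.27 (interval -0.71 to 0.16, adjusted p = 0.264).

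ADE12 (YNL220W), which encodes adenylosuccinate synthase at the start of the branch from IMP to AMP, had the narrowest range of the 10 over single arrays. Its 8 log2 levels ran from 12.21 to 12.50, and the strain mean (± SD) was 12.31 ± 0.13 over the wild type arrays, 12.37 ± 0.11 over those of Δpde2 and 12.43 over those of Δpde2Δtpk3. The interval of each difference lay well within 2 fold, from -0.21 to 0.33 between Δpde2 and wild type. MTD1 (YKR080W), for a cytoplasmic methylenetetrahydrofolate dehydrogenase, read 10.11, 10.78 and 10.95 in wild type, 10.78, 10.81 and 11.06 in Δpde2, and 10.84 and 11.67 in Δpde2Δtpk3 (log2 levels). The Δpde2 difference from wild type of 0.27 (adjusted p = 0.463) shrank to 0.02 without wild type replicate 1, on which the gene was lowest.

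AAH1 (YNL141W) showed the widest range of the 10. Its log2 level was 9.98, 9.996 and 9.17 in wild type, 9.29, 9.37 and 8.90 in Δpde2, and 9.95 and 12.16 in Δpde2Δtpk3. All Δpde2 arrays lay below both Δpde2Δtpk3 arrays, and replicate 1 of the latter lay within the wild type range. Between the mutants AAH1 was lower in Δpde2 by -1.87 on the log2 scale (SE 0.60, interval -3.28 to -0.46), or 3.66 fold, the 14th lowest value of 5449, yet its adjusted p of 0.0865 missed the threshold. The value rested on 1 array. Without Δpde2Δtpk3 replicate 2 the difference was -0.77 (adjusted p = 0.328) and without replicate 1 it was -2.98 (adjusted p = 0.0302). It also passed, at -1.87 (adjusted p = 0.0329), without wild type replicate 1. AAH1 is on the study's own list of genes for this pair of strains, which was drawn from these arrays, so its difference is not independent evidence. That list is headed as genes up-regulated in Δpde2, the direction opposite to the one found here. It also holds COX4 and NDE2, which the study elsewhere gives as down-regulated, so its heading conflicts with the study's own values. Against wild type, Δpde2 differed by -0.53 (interval -1.79 to 0.73, adjusted p = 0.447) and Δpde2Δtpk3 by 1.34 (interval -0.07 to 2.75, adjusted p = 0.269), intervals wide enough to hold changes of over 2 fold. The fit shares a single spread per gene among the strains. The interval of Δpde2 against wild type thus also carries the SD of 1.56 in Δpde2Δtpk3, beside 0.47 in wild type and 0.25 in Δpde2.

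**Figure D2:**
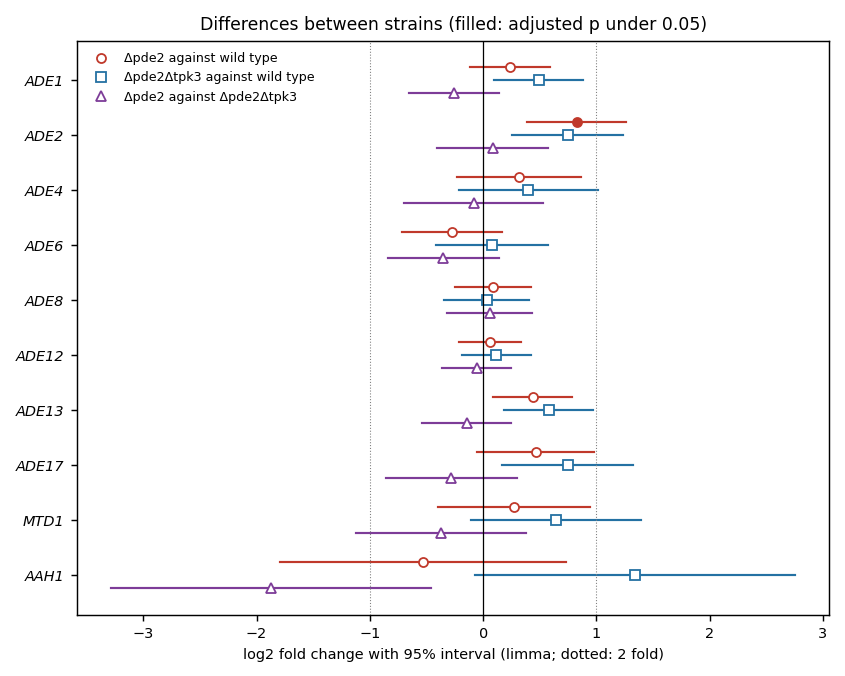
Log2 fold change of each purine gene in the 3 comparisons of strains (x axis), with its 95% interval from limma; filled symbols have an adjusted p under 0.05 and dotted lines mark 2 fold. Only ADE2 between Δpde2 and wild type is filled, at 0.83, and the intervals of AAH1 are the widest.

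By limma, none of the 10 was called between Δpde2Δtpk3 and wild type, beside 2.72% of all genes, and 4 of them (ADE1, ADE2, ADE13 and ADE17) had an unadjusted p under 0.05, beside 20.1% of all genes. The same 4 were those whose arrays did not overlap, all with the mutant higher, beside 36.9% of all genes in either direction and 16.0% in that direction. All 10 differences were positive, from 0.03 for ADE8 to 1.34 for AAH1, where 2727 of all 5449 genes were positive, and their median was 0.53 beside 0.00018 for all genes. The shared sign rested on Δpde2Δtpk3 replicate 2, without which ADE4 (-0.07), ADE6 (-0.06) and ADE8 (-0.06) were negative. Between the mutants, too, none of the 10 was called by limma, beside 13.0% of all genes, and only AAH1 had an unadjusted p under 0.05, beside 29.2%. The arrays did not overlap for ADE1, ADE6 and AAH1, beside 64.6% of all genes. The median difference of the 10 was -0.20 (Δpde2 minus Δpde2Δtpk3) and that of all genes 0.02. These comparisons share arrays with each other and are not independent.

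The Δpde2Δtpk3 arrays disagreed on these genes in a single direction. All 10 were higher on replicate 2 than on replicate 1, where 44.0% of all genes were, with a median difference of 0.48 on the log2 scale beside -0.04 for all genes. AAH1 differed by 2.21, the 3rd largest difference of all 5449 genes in that direction, ADE4 by 0.94, MTD1 by 0.82, ADE2 by 0.67 and ADE17 by 0.54. At the other end ADE8 differed by 0.18 and ADE12 by 0.003. In the values as deposited, without quantile normalization, the medians were 0.55 for the 10 genes and 0.09 for all genes. Within Δpde2, where the 3 arrays agreed closely, the median SD of the 10 genes was 0.0856, against 0.216 in wild type and 0.342 in Δpde2Δtpk3. On replicate 1, 6 of the 10 lay within the range of the wild type arrays, and on replicate 2, 3 of the 10 did. The median log2 fold change of the 10 between Δpde2Δtpk3 and wild type was 0.23 with Δpde2Δtpk3 replicate 2 left out, and 0.82 with its replicate 1 left out. In fits with 1 such array left, its spread was assumed to be that of the other strains.

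**Figure D3:**
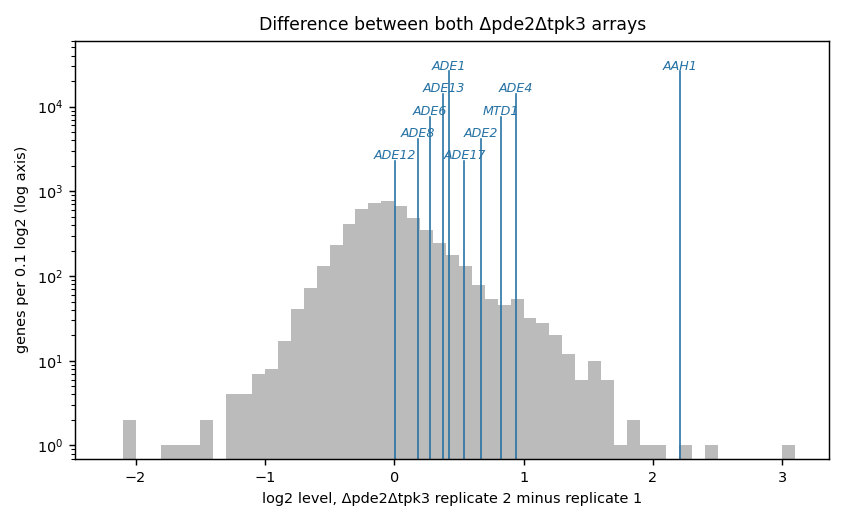
Histogram of the difference in log2 level between both Δpde2Δtpk3 arrays (x axis, replicate 2 minus replicate 1) over all 5449 genes, with the count of genes on a log axis and vertical lines at the 10 purine genes. All lines lie at or to the right of 0, from 0.003 for ADE12 to 2.21 for AAH1.

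The related gene lists varied in how far they differed between these arrays. The 6 measured genes of de novo synthesis outside the 10 (ADE16 and the PRS genes, which make phosphoribosyl pyrophosphate) were all higher on replicate 2, by a median of 0.48, and so were 14 of 16 other salvage genes, by a median of 0.20. Chosen after their values were seen, HPT1, the hypoxanthine-guanine phosphoribosyltransferase that uses the product of Aah1p, differed by 1.54, and FCY2, the purine-cytosine permease, by 0.92. Of the 4 regulators BAS1 differed by 0.98 and GCN4 by 0.04, while PHO2 (-0.14) and SAF1 (-0.47) were lower on replicate 2. Of the pyrimidine genes 10 of 13 were also higher on replicate 2, with URA7, the CTP synthase, at 1.66 (named after its value was seen). The counts were 3 of 4 for the GMP branch, 3 of 6 for histidine synthesis, 7 of 16 for one-carbon supply and 0 of 4 for nucleotide kinases.

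The remaining de novo list did not change by the test. None of ADE16 and the 5 PRS genes was called in any comparison by limma, and at an unadjusted p under 0.05 there was 1, between the mutants. ADE5,7 was not analysed here. The regulators BAS1, PHO2 and GCN4, the activator of amino acid synthesis genes, had log2 differences between Δpde2 and wild type of 0.02, 0.21 and 0.04, with adjusted p of 0.958, 0.163 and 0.790, and none was called in the other comparisons.

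In the branch from IMP to GMP, larger differences were found. Of its 4 measured genes 3 rose in Δpde2 against wild type and none fell, with a median log2 fold change of 1.17. Over all genes 41.4% were called in this comparison, 19.5% higher and 21.9% lower, and the counts of the lists that follow are to be read against these shares. IMD2, for IMP dehydrogenase, the first enzyme of the branch, read 8.45, 6.27 and 6.55 in wild type, 10.43, 10.20 and 10.26 in Δpde2, and 9.86 and 9.61 in Δpde2Δtpk3 (log2 levels). It rose by 3.21 (SE 0.52, adjusted p = 0.00328) in Δpde2, with wild type replicate 1 above the other wild type arrays. The IMD genes are closely related copies and IMD2's probe set may read more than 1 of them, so its level is uncertain. IMD3 and IMD4 were read by probe sets of their own, at 10.95 to 11.65 and 10.37 to 11.05 in wild type. IMD3, named after its values were seen, differed by -0.08 in Δpde2 against wild type (limma adjusted p = 0.837). IMD4 rose by 1.66 (adjusted p = 0.000995). GUA1, for GMP synthase, rose by 0.68 (adjusted p = 0.0436) but was lost without wild type replicate 2 or 3 or any Δpde2 array, at an adjusted p of up to 0.133. None of the 4 was called in Δpde2Δtpk3 against wild type or between the mutants by limma, where 2 and 1 had an unadjusted p under 0.05.

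Among 16 genes of folate and one-carbon supply 3 rose, 1 fell and 12 were not called in Δpde2 against wild type, a smaller share called than the 41.4% of all genes. ADE3 encodes the trifunctional enzyme that makes the formyl donor for the Ade8p and Ade17p steps. Its log2 level was 12.34, 12.02 and 11.67 in wild type, 13.28, 13.16 and 13.30 in Δpde2, and 12.58 and 12.45 in Δpde2Δtpk3, and it rose by 1.23 (SE 0.17, adjusted p = 0.00186) in Δpde2. MIS1, its mitochondrial counterpart, rose by 0.82 (adjusted p = 0.0420) and passed only as long as no array but wild type replicate 1 was left out, with an adjusted p of up to 0.124. MET7, for folylpolyglutamate synthase and named here after its values were seen, rose by 0.60 (adjusted p = 0.00624). LPD1, for the lipoamide dehydrogenase shared by the glycine cleavage system, fell by 0.64 (adjusted p = 0.00376). Between Δpde2Δtpk3 and wild type GCV1, a glycine cleavage subunit, was called at 0.78 (adjusted p = 0.0446), which again held only without wild type replicate 1 when single arrays were left out, and ranged up to an adjusted p of 0.266.

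Of 16 salvage genes measured outside AAH1, 5 fell, 1 rose and 10 were not called in Δpde2 against wild type, a share called near the 41.4% of all genes. APT2, a paralogue of the adenine phosphoribosyltransferase gene APT1, read 12.07, 11.64 and 11.86 in wild type, 10.82, 10.90 and 10.83 in Δpde2, and 11.03 and 11.18 in Δpde2Δtpk3 (log2 levels). APT2 fell by 1.00 (adjusted p = 0.00146), and TPN1, a vitamin B6 transporter of the purine permease family, by 0.81 (adjusted p = 0.00357). APT1 fell by 0.93 (adjusted p = 0.0416) and GUD1, the guanine deaminase, by 0.87 (adjusted p = 0.0202), both lost without any Δpde2 array, at adjusted p of up to 0.131 and 0.0757. The others called, named after their values were seen, were XPT1, the xanthine phosphoribosyltransferase (-0.49, adjusted p = 0.00959), and ISN1, the IMP nucleotidase (0.49, adjusted p = 0.0356, and up to 0.107 with 1 array left out). Between the mutants TPN1 (-0.61, adjusted p = 0.0421) and XPT1 (-0.45, adjusted p = 0.0479) were lower in Δpde2, and neither held when any array but wild type replicate 1 was left out, at adjusted p of up to 0.223 and 0.226.

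SAF1 encodes the F-box protein through which Aah1p is degraded as cells enter quiescence. Its log2 level was 11.83, 11.55 and 11.74 in wild type, 10.48, 10.56 and 10.57 in Δpde2, and 11.27 and 10.80 in Δpde2Δtpk3. It fell by 1.16 (SE 0.15, adjusted p = 0.00132) in Δpde2 against wild type, and the arrays of all 3 strains lay apart, with Δpde2Δtpk3 between the others. AAH1 itself was not called between these strains, as given above. Of the 4 genes of nucleotide kinases 2 were called, near the 41.4% of all genes, of which ADK2 fell by 0.65 (adjusted p = 0.0148) and YNK1 by 0.38 (adjusted p = 0.0160), the former lost without Δpde2 replicate 1 or 2 (adjusted p up to 0.0572) and the latter without any Δpde2 array (up to 0.0755).

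**Figure D4:**
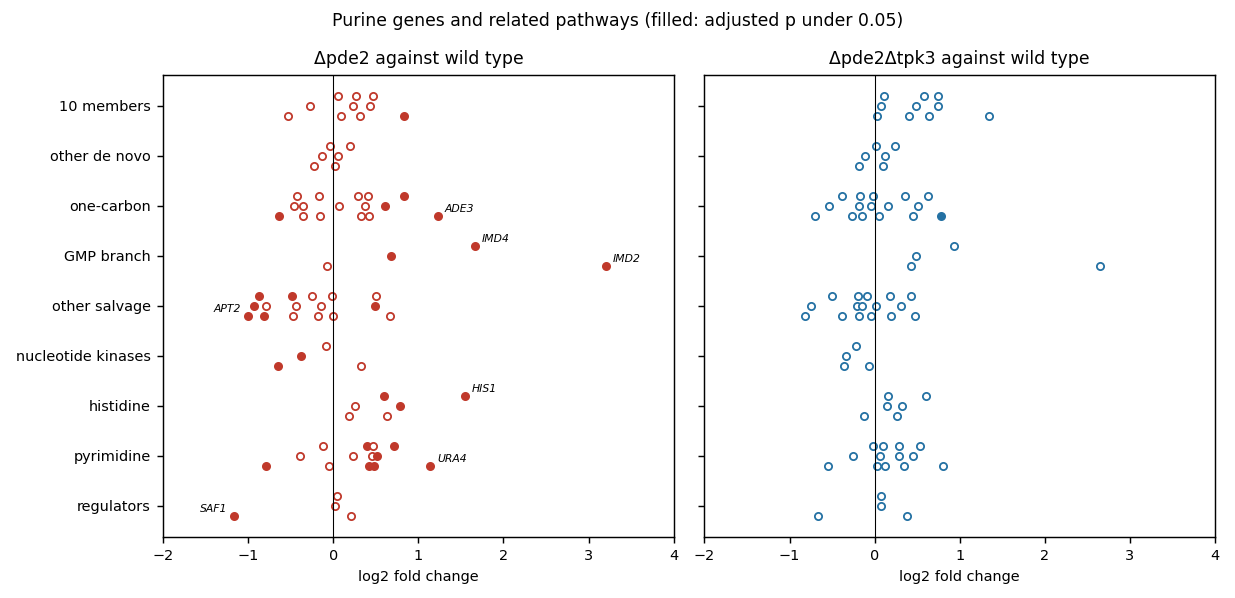
Log2 fold change (x axis) of the 10 purine genes and the genes of 8 related lists against wild type, for Δpde2 on the left and Δpde2Δtpk3 on the right, each point a gene and filled where the adjusted p is under 0.05. On the left the GMP branch reaches 3.21 with IMD2 while the 10 purine genes lie between -0.53 and 0.83, and on the right a single gene, GCV1, is filled.

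Histidine synthesis shares AICAR with the purine route, and pyrimidine synthesis runs beside it. Of 6 histidine genes outside HIS3, 3 rose in Δpde2 against wild type and none fell, a share called near the 41.4% of all genes. HIS1, for the ATP phosphoribosyltransferase that starts the pathway, read 10.98, 10.55 and 10.26 in wild type, 12.15, 12.21 and 12.08 in Δpde2, and 10.81 and 11.04 in Δpde2Δtpk3 (log2 levels). It rose by 1.55 (adjusted p = 0.00107) against wild type, and it was higher in Δpde2 than in Δpde2Δtpk3 by 1.23 (adjusted p = 0.0169). The latter call was lost without any single mutant array, at an adjusted p of up to 0.0808. The mutants carry different markers, with HIS3 introduced only into Δpde2Δtpk3. The HIS3 probe set read 11.36, 10.88 and 10.95 in wild type, 11.81, 11.86 and 11.955 in Δpde2, and 11.105 and 11.53 in Δpde2Δtpk3 (log2 levels). This reading was thus higher in Δpde2 than in wild type, by 0.81 (limma adjusted p = 0.00934), and by 0.56 than in Δpde2Δtpk3 (adjusted p = 0.104). Wild type and Δpde2 carry his3Δ1 and no HIS3 marker, so in them it does not show an intact HIS3. The part of the marker in the difference of HIS1 was not tested. HIS5 rose by 0.59 (adjusted p = 0.0102). HIS2 rose by 0.79 against wild type (adjusted p = 0.0155) and was higher than in Δpde2Δtpk3 by 0.91 (adjusted p = 0.0370), but these calls were lost without wild type replicate 3 and several mutant arrays, at adjusted p of up to 0.0615 and 0.204.

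Of 13 pyrimidine genes 6 rose, 1 fell and 6 were not called in Δpde2 against wild type, beside 19.5% of all genes called higher and 21.9% lower. URA4, the dihydroorotase, read 12.11, 12.14 and 12.13 in wild type, 13.21, 13.29 and 13.29 in Δpde2, and 12.71 and 12.45 in Δpde2Δtpk3 (log2 levels), so the strains lay wholly apart. It rose by 1.14 (adjusted p = 0.00048) against wild type and was higher by 0.68 (adjusted p = 0.0175) than in Δpde2Δtpk3, the latter lost without any Δpde2 array or Δpde2Δtpk3 replicate 2 (adjusted p up to 0.0978). URK1, the uridine kinase, rose by 0.71 (adjusted p = 0.0124, and 0.0520 without Δpde2 replicate 2) and URA1, the dihydroorotate dehydrogenase, by 0.51 (adjusted p = 0.00716). URA10, the minor orotate phosphoribosyltransferase, fell by 0.79 (adjusted p = 0.00372).

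The profiles of the 10 over the 8 arrays, each centred on its own mean, were compared by their root mean square difference on the log2 scale. The closest pair was ADE1 and ADE17, at 0.163, and the farthest ADE8 and AAH1, at 0.947. Outside the lists, the genes closest to AAH1 were NOG1 (0.416), RPS9A (0.460), NSR1 (0.466), NOP1 (0.478) and IZH2 (0.491). NOG1 read 9.68 and 11.62 on the Δpde2Δtpk3 arrays and 9.59 to 9.99 in Δpde2, so that the high replicate 2 recurs in it. RPS9A, NSR1, NOP1 and IZH2 were likewise higher on replicate 2 than on replicate 1. Being chosen for likeness over the same arrays, these genes are no separate finding. The genes closest to the mean profile of the 8 de novo members were KTI11 (0.0502), DGK1 (0.0676), STE4 (0.0760), RIB1 (0.0761) and TAF5 (0.0786). As a description of 8 arrays these values carry no test.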

How the data were processed

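The authors deposited log2 values for 5814 probe sets on 8 arrays. The software and normalization that made them are not given in the sources used here, and 5 residual degrees of freedom limit the precision. Quartiles of the deposited columns differed by up to 0.386, over the limit of 0.1, so values were quantile normalized. Symbols came from the platform annotation, with 12 updated through RefSeq R64. Of the probe sets 5498 named 1 gene, and 316 named none and were left out. For 47 genes with several probe sets that with the highest mean was used, leaving 5449 genes.

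A limma fit (version 3.58.1, R 4.3.3) took the 3 strains as groups, with empirical Bayes moderation and Benjamini-Hochberg adjustment over all genes, and genes were called at an adjusted p under 0.05. Each gene had a single spread shared by the 3 strains, so every comparison also draws on the strain outside it. On data simulated for 5449 genes, the fit found 60.2% of the genes set to change by 1 on the log2 scale between Δpde2 and wild type and 52.8% between the mutants, and 88.4% and 84.2% of those set to change by 2. Of the calls 5.56% and 7.21% were false.

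The 10 members, 8 gene lists (70 genes) and tests were chosen with earlier results of these data known. Named are all members, up to 4 called genes a list with the largest changes in any comparison, paralogues and partners (ADE5,7, ADE16, ADE3), the regulators BAS1, PHO2 and GCN4, and the 5 genes nearest in profile to AAH1 and to the de novo mean among genes above the lowest 33.3 percent of level. Alternatives were median centring, values as deposited, no low genes, probe set means, only the strains compared, array weights, moderation made robust with a trend, the replicate number as a block, the omission of each array, and normalization repeated without wild type replicate 1. A planned search of promoter motifs was not run. The authors' own comparisons in their additional files were not used, apart from the listing of AAH1 described above.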

Additional observations from a re-analysis of the deposited data

How the results depend on the processing

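The number of arrays, with 2 of Δpde2Δtpk3, limits the precision. Among single genes and alternatives, 1100 of 1266 fits kept direction and side of the threshold, 96 lost a call, 47 gained a call and 23 changed sign, and the cause was not tested. ADE2 kept its call between Δpde2 and wild type in all of them. The 1 call of that comparison became 2 without the genes of lowest level, with only the strains compared, and with trend and robust moderation, 6 with array weights, and 1 to 3 with an array left out, the 3 when normalization was repeated without wild type replicate 1. Between the mutants AAH1 was the 1 call with only the strains compared (adjusted p = 0.0448), with array weights (adjusted p = 0.0223) and without wild type replicate 1 when normalization was repeated (adjusted p = 0.0331), and the count was 0 to 1 with an array left out. Between Δpde2Δtpk3 and wild type 4 were called with array weights and 0 to 3 with an array left out. The median of the 10 then ran from -0.48 to 0.0147 between the mutants and from 0.23 to 0.82 between Δpde2Δtpk3 and wild type.

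Some differences changed sign. Between Δpde2 and wild type GCN4 went to -0.0269 with median centring, -0.0268 with array weights and -0.0325 without wild type replicate 1 when normalization was repeated, MTD1 to -0.0304 with array weights, and with an array left out ADE12 ran from -0.0057 to 0.13, BAS1 from -0.0753 to 0.0923 and GCN4 from -0.0327 to 0.0858. Between the mutants, with an array left out, ADE2 ran from -0.25 to 0.42, ADE4 from -0.55 to 0.39, ADE8 from -0.0302 to 0.15, ADE13 from -0.33 to 0.0469, MTD1 from -0.78 to 0.0404 and BAS1 from -0.85 to 0.13. Between Δpde2Δtpk3 and wild type ADE4 ran from -0.0723 to 0.87, ADE6 from -0.0587 to 0.24, ADE8 from -0.0596 to 0.16 and BAS1 from -0.11 to 0.87.

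Deviations of same-numbered arrays from their strain means correlated at -0.091 to 0.194 over 7 pairs, 2 of them over 0.1, so the numbers were not taken to pair the arrays. With the replicate number as a block 1 of the 10 was called between Δpde2 and wild type and 0 in the other comparisons, ADE6 went to -0.0274 between Δpde2Δtpk3 and wild type, and the shares of all genes called were 34.6% between Δpde2 and wild type, 0.0184% between the mutants and 0.0918% between Δpde2Δtpk3 and wild type.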
